A study of Mus musculus with 20 samples.

Results

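The transcripts of 10 cytokine receptor subunits were followed in activated mouse CD8+ T cells given interleukin-21 (IL-21) or 21h10, a designed protein that mimics IL-21. The subunits form the receptors of IL-6 and IL-27 (Il6ra, Il6st, Il27ra), IL-10 (Il10ra, Il10rb), IL-12 (Il12rb1, Il12rb2) and IL-18 (Il18r1, Il18rap), with the ligand-binding chain of the interferon-γ receptor (Ifngr1). They were chosen by gene symbol, with earlier results of these data known, and the longest listed transcript was used for each symbol. They make up 10 of the 23992 symbols in the count tables. All 10 passed the filter on low counts in both experiments.

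RNA was sequenced from CD8+ T cells that had been taken by negative selection from spleens of wild-type C57BL/6J mice aged 6 to 8 weeks. All cells, the unstimulated ones included, had first been activated through CD3 and CD28 and then rested overnight, and the cytokine was left on for 24 h. The sample titles give this time for the cytokine libraries and none for the unstimulated ones. A difference in culture time could thus not be told apart from the cytokine in comparisons with unstimulated cells. Experiment 1 compared mouse IL-21 (mIL-21) and 21h10 at 100 pM and at 1 nM with unstimulated cells, and experiment 2 compared the same proteins at 10 nM and at 100 nM with its own unstimulated cells. Each of the 5 groups of an experiment held 2 libraries, which the study describes as biological duplicates, so the 10 groups together held 20 libraries. The sample titles call mIL-21 "WT", and that reading rests on the treatment protocol naming only these 2 proteins. The cells were expanded in culture, and whether spleens were pooled is not given in the sources used here. Because dose range and experiment change together, the step from 1 nM to 10 nM cannot be told apart from the change of experiment, and no test was made across it.

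IL-6, IL-27, IL-10, IL-12 and interferon-γ signal through paired receptor chains that carry JAK kinases and recruit STAT factors, whereas the IL-18 receptor belongs to the IL-1 receptor family and signals through the adaptor MyD88. In most of these pairs a private chain binds the ligand and a shared chain joins it. gp130, the product of Il6st, serves both IL-6 and IL-27, and the IL-12Rβ1 chain also serves IL-23. In CD8+ T cells, IL-12 and IL-18 are known for driving interferon-γ production, and the level of a receptor chain is one of the things that sets whether a cell can answer a cytokine. IL-21 itself signals through JAK1 and JAK3, mainly to STAT3.

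DNA before a transcript start is shown for 3 genes whose transcripts rose with the cytokines. The stretches of Il12rb2 and Il18r1 hold the letters STAT factors are known to bind. That of Il6ra, the gene that rose most in experiment 2, does not. The windows were searched on both strands for the letters TTCNNNGAA, the core of a STAT site, and matches are in capitals. Sequences are from RefSeq on build GRCm38.p6 and read 5′ to 3′ on the strand of the gene. For Il12rb2 the 250 bases before the transcript start, at chr6:67376189-67376438 on the minus strand, held 1 match, 123 to 115 bases before the start. For Il18r1, 159 bases at chr1:40465811-40465969 on the plus strand are printed, which hold a match 152 to 144 bases before the start of the transcript used. A further match, 219 to 211 bases before that start, lay in an exon of another Il18r1 transcript and is not printed. The printed stretch lies inside the gene, which starts at chr1:40465552. The windows before other Il18r1 starts, chr1:40465302-40465551 and chr1:40465371-40465620, held no match. For Il6ra the 250 bases at chr3:89913197-89913446 on the minus strand held no match. This stretch overlaps exonic bases of the antisense gene Gm42809.
Il12rb2: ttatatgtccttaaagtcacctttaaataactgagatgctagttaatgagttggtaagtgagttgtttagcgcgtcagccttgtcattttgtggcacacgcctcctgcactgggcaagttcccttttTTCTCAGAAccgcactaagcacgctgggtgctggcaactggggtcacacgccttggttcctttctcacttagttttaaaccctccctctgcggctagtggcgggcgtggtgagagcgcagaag
Il18r1: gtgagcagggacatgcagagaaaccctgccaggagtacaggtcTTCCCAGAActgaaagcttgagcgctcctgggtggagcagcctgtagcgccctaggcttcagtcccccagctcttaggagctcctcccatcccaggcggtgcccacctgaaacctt
Il6ra: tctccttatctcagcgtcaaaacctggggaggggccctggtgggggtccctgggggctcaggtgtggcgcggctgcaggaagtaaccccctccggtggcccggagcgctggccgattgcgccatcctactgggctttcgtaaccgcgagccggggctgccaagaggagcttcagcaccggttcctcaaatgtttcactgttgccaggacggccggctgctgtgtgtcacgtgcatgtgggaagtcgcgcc

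Of the 10 genes, 6 were listed in the promoter table, with 3 windows for Il18r1 and so 8 windows in all. The STAT letters stood in 2 of those 8 windows and in 7.02% of the 32851 promoter windows of 250 bases. The 2 Il18r1 windows without a match overlap each other, so the 8 are not separate, and their share was not tested against that of all windows. Like that of Il6ra, the windows of Il6st, Il18rap and Ifngr1, which also rose with the cytokines, held none. None of the 8 windows held the T-box letters AGGTGTGA or the AP-1 letters TGANTCA on either strand, which stood in 1.12% and 6.75% of all windows. These are matches of letters in short windows and not measured binding sites.

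Depth was 36829350 to 94079673 reads on genes per library in experiment 1 and 27074399 to 43303144 in experiment 2. Il6ra was the least covered receptor gene, with 89 to 1740 reads per library, and no other had fewer than 573. The 6 CD8+ T cell markers (Cd8a, Cd8b1, Cd3d, Cd3e, Cd3g and Lck) each stood at 122 to 621 RPKM in every library. The 13 defining markers of B, myeloid, NK and erythroid cells did not exceed 47 reads or 0.616 RPKM in any library. The other NK markers, Nkg7 and Eomes, are also made by CD8+ T cells, and with them the summed NK list ran from 152 to 204.98 RPKM in the unstimulated libraries and from 312 to 598 in the cytokine libraries. The summed B cell list ran from 0.706 to 1.36 RPKM without cytokine and from 0.0279 to 0.602 with it. Of the CD4+ T cell markers, Cd4 reached 314 reads and 1.30 RPKM in experiment 1, and Foxp3 130 reads and 1.03 RPKM in experiment 2. Summed with Cd40lg, they ran from 1.37 to 1.84 RPKM in experiment 1 and from 0.893 to 1.56 in experiment 2. The summed level of the myeloid list, which is carried by Itgam, moved with the cytokines, from 0.223 to 0.324 RPKM in the unstimulated libraries of experiment 1 and 0.806 to 0.946 in those of experiment 2 up to 17.3 and 23.1 RPKM, and the part of these lists in the receptor results was not tested. Levels are given as TMM-scaled RPKM, which is reads per kilobase, relative to the reads on genes after TMM scaling within each experiment, and are compared between genes only on this per-length scale. Differences are log2 fold changes ± SE from edgeR's quasi-likelihood test over all 10 libraries of an experiment, and a gene is said to have risen or fallen where the Benjamini-Hochberg adjusted p over all genes tested was under 0.05.

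Without cytokine the 10 chains covered a wide range of levels. In experiment 1 Il12rb2 and Ifngr1 were highest, at mean levels of 58.9 and 55.9, Il12rb1, Il10rb, Il27ra, Il10ra and Il18r1 stood between 35.0 and 13.4, Il6st and Il18rap at 7.85 and 4.04, and Il6ra at 0.798. The unstimulated cells of experiment 2 put Ifngr1 (209.9) and Il12rb2 (112) first and Il6ra (1.07) last again. The 2 experiments were scaled apart, and the difference in Ifngr1 between their unstimulated cells cannot be told apart from the change of experiment. Within experiment 1 the highest group mean exceeded the lowest by 4.78-fold for Il12rb2, 3.83-fold for Il6ra and 3.45-fold for Ifngr1, against 1.35-fold for Il12rb1. Within experiment 2 it did so by 11.5-fold for Il6ra, 5.01-fold for Il18rap and 4.45-fold for Il18r1, against 1.24-fold for Il10rb.

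**Figure D1:**
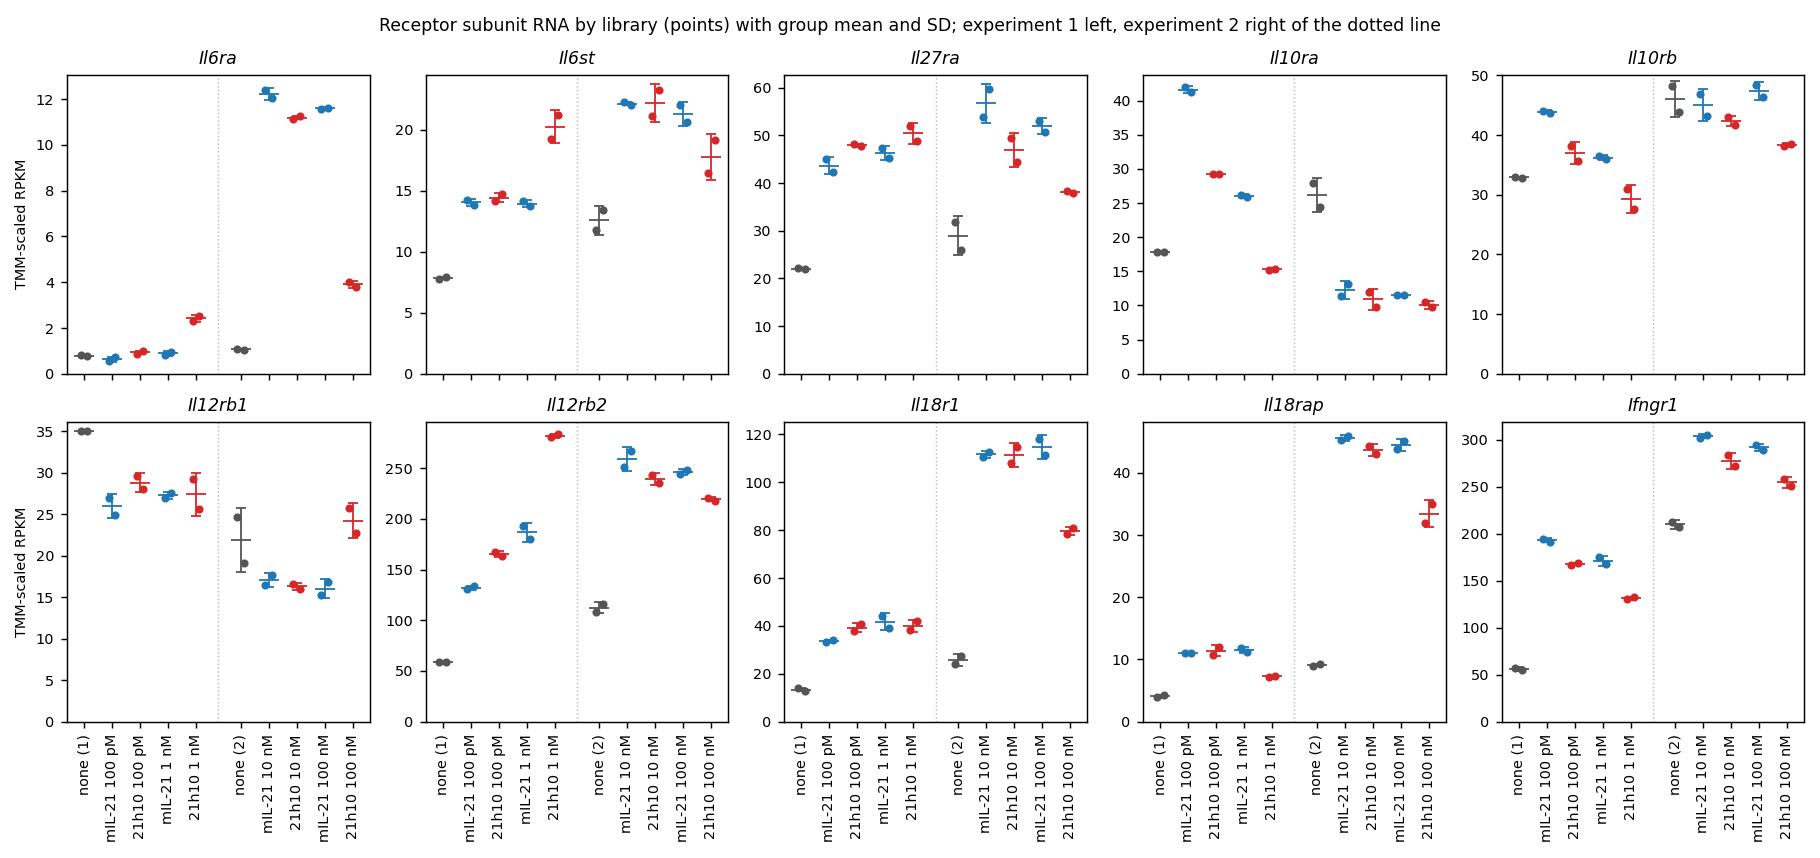
Level of each of the 10 receptor genes in TMM-scaled RPKM (vertical axes, linear, each panel on its own scale) in the 5 groups of experiment 1 and the 5 groups of experiment 2. Points are single libraries, bars are the group mean with SD of 2 libraries, and "none" marks unstimulated cells of each experiment. Il6ra stays under 3 in experiment 1 and stands at 11 to 13 in 3 of the cytokine groups of experiment 2, while the 20 libraries of Il10rb stand between 27.6 and 48.4.

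Il6ra encodes the ligand-binding α chain of the IL-6 receptor and lies at chr3:89864059-89913196 on the minus strand (build GRCm38, GENCODE vM21, as for all gene positions here). In experiment 1 it stood at 0.808 and 0.788 without cytokine, 0.549 and 0.713 with mIL-21 and 0.877 and 0.989 with 21h10 at 100 pM, then at 1 nM 0.818 and 0.954 with mIL-21 but 2.32 and 2.52 with 21h10. Both 21h10 libraries at 1 nM stood above all 8 others of the experiment. In experiment 2 the values were 1.09 and 1.04 without cytokine, 12.4 and 12.1 with mIL-21 and 11.1 and 11.3 with 21h10 at 10 nM, then at 100 nM 11.6 and 11.6 with mIL-21 but 4.01 and 3.79 with 21h10. No library of the 3 high groups came near the 21h10 libraries at 100 nM, which in turn stood above both unstimulated ones. Against unstimulated cells Il6ra rose 3.03-fold with 21h10 at 1 nM (log2 1.60 ± 0.13), 11.5-fold with mIL-21 and 10.5-fold with 21h10 at 10 nM, and at 100 nM 10.9-fold with mIL-21 but 3.66-fold with 21h10 (log2 1.87 ± 0.12). Its change did not pass the test for 100 pM of 21h10 (0.24 ± 0.13, adjusted p 0.108) or 1 nM of mIL-21 (0.15 ± 0.15, adjusted p 0.337). Its fall with mIL-21 at 100 pM (-0.36 ± 0.15, adjusted p 0.0435) was lost with DESeq2, in 3 other settings and when any of 3 libraries was left out, with -0.17 without mIL-21 100 pM replicate 1, -0.34 without unstimulated replicate 1 and -0.38 without unstimulated replicate 2. Of the exonic bases of Il6ra, 6.22% overlap the antisense gene Gm42809, and whether the counting used strand is not given in the sources used here.

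Il6st encodes gp130, the signalling chain shared by IL-6, IL-27, leukaemia inhibitory factor and oncostatin M (chr13:112464070-112510086, plus strand). Its libraries read 7.80 and 7.90 in the unstimulated cells of experiment 1, 14.2 and 13.9 with mIL-21 and 14.2 and 14.7 with 21h10 at 100 pM, then at 1 nM 14.1 and 13.7 with mIL-21 but 19.3 and 21.2 with 21h10. The 3 middle groups overlapped, and the 21h10 libraries at 1 nM stood above them. Experiment 2 gave 11.7 and 13.4 without cytokine, 22.2 and 22.0 with mIL-21 and 21.1 and 23.3 with 21h10 at 10 nM, then at 100 nM 22.0 and 20.6 with mIL-21 but 16.4 and 19.1 with 21h10. Il6st rose over unstimulated cells in all 8 groups, from 0.50 ± 0.10 with 21h10 at 100 nM to 1.37 ± 0.05 with 21h10 at 1 nM. The rise at 100 nM of 21h10 did not pass when library sizes came from mapped reads (0.20, adjusted p 0.076).

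Il27ra encodes the IL-27-specific chain that pairs with gp130 (chr8:84030294-84042589, minus strand). It read 22.1 and 22.0 without cytokine in experiment 1, 44.9 and 42.3 with mIL-21 and 48.2 and 47.7 with 21h10 at 100 pM, then at 1 nM 47.4 and 45.2 with mIL-21 and 52.0 and 48.9 with 21h10. All 8 cytokine libraries were above both unstimulated ones. In experiment 2 the values were 31.8 and 26.0 without cytokine, 53.9 and 59.6 with mIL-21 and 49.5 and 44.5 with 21h10 at 10 nM, then at 100 nM 53.1 and 50.7 with mIL-21 and 38.3 and 37.9 with 21h10. The groups did not overlap and ran, from the top, mIL-21 (10 nM, then 100 nM), 21h10 (10 nM, then 100 nM) and unstimulated. Il27ra rose in all 8 groups, by 0.98 ± 0.05 to 1.19 ± 0.05 in experiment 1 and by 0.40 ± 0.10 to 0.97 ± 0.10 in experiment 2, where the lowest rise, with 21h10 at 100 nM, did not pass with library sizes from mapped reads (0.09, adjusted p 0.5).

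Il10ra, the ligand-binding chain of the IL-10 receptor (chr9:45253837-45269149, minus strand), rose in 3 of the 4 cytokine groups of experiment 1 and fell in the other 5 groups of the series. It read 17.8 and 17.8 in the unstimulated cells of experiment 1, 42.0 and 41.2 with mIL-21 and 29.2 and 29.3 with 21h10 at 100 pM, then at 1 nM 26.2 and 25.9 with mIL-21 and 15.2 and 15.4 with 21h10. No 2 groups overlapped, and the order fell from mIL-21 at 100 pM to 21h10 at 1 nM, the only group under the unstimulated cells. Experiment 2 gave 28.0 and 24.5 without cytokine and between 9.71 and 13.2 in the 8 cytokine libraries, where each group overlapped the next in the order of levels. At 100 pM Il10ra rose with mIL-21 (1.23 ± 0.04) and 21h10 (0.71 ± 0.04), at 1 nM it rose with mIL-21 (0.55 ± 0.05) and fell with 21h10 (-0.22 ± 0.05), and it fell in all 4 groups of experiment 2 (-1.09 ± 0.11 to -1.37 ± 0.11). In these bulk libraries fewer cells that carry a transcript and less of it per cell cannot be told apart.

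Il10rb, the chain that the IL-10 receptor shares with those of IL-22 and the type III interferons (chr16:91406164-91425834, plus strand), gave 33.0 and 32.8 without cytokine in experiment 1, 44.1 and 43.7 with mIL-21 and 38.2 and 35.6 with 21h10 at 100 pM, then at 1 nM 36.5 and 35.9 with mIL-21 and 30.9 and 27.6 with 21h10. This is the order of Il10ra, save that 100 pM of 21h10 and 1 nM of mIL-21 overlapped. Experiment 2 gave 48.2 and 43.9 without cytokine and 38.1 to 48.4 with it. Il10rb rose with mIL-21 at 100 pM (0.42 ± 0.06), a call kept in every alternative run. The smaller calls, 0.16 ± 0.06 (100 pM of 21h10), 0.14 ± 0.06 (1 nM of mIL-21), -0.17 ± 0.06 (1 nM of 21h10) and -0.26 ± 0.08 (100 nM of 21h10), were each lost when single libraries were left out. These were 21h10 100 pM replicate 1 or either unstimulated one (0.11 to 0.17), either one of the unstimulated group or of mIL-21 at 100 pM or 1 nM (0.13 to 0.15), 21h10 1 nM replicate 2 or unstimulated replicate 1 (-0.09 and -0.17), and either 21h10 library at 100 nM or unstimulated replicate 1 (-0.27 to -0.20). With library sizes from mapped reads Il10rb also fell with 10 nM of 21h10 (-0.39, against -0.12 ± 0.08). Of its exonic bases, 30.8% are shared with the same-strand gene Gm21970, so its count is uncertain to that extent.

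Il12rb2 encodes the IL-12-specific chain, which recruits STAT4 (chr6:67291318-67376188, minus strand), and was the most abundant of the 10 in the unstimulated cells of experiment 1. Its libraries read 58.6 and 59.2 without cytokine, 130.4 and 133.5 with mIL-21 and 168 and 164 with 21h10 at 100 pM, then at 1 nM 192.9 and 180.2 with mIL-21 and 280.3 and 283 with 21h10. No groups overlapped, and 21h10 stood above mIL-21 at each dose. Its values in experiment 2 were 109 and 116 without cytokine, 251 and 267 with mIL-21 and 243 and 235 with 21h10 at 10 nM, then at 100 nM 244 and 249 with mIL-21 and 221 and 218 with 21h10. Here too the groups did not overlap, and mIL-21 stood above 21h10. Il12rb2 rose in all 8 groups, from 0.97 ± 0.08 with 21h10 at 100 nM to 2.26 ± 0.05, a 4.78-fold change, with 21h10 at 1 nM. Of its exonic bases, 27.3% overlap the antisense gene Serbp1. The change of Serbp1 from unstimulated cells ran from -0.81 to -0.57 in experiment 1 and from 0.01 to 0.62 in experiment 2. With 21h10 against mIL-21, Serbp1 differed by 0.09 at 100 pM, 0.21 at 1 nM, 0.32 at 10 nM and 0.35 at 100 nM. Of these only the difference at 1 nM passed. The part of that overlap in the Il12rb2 values was not tested.

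Il12rb1, the chain shared by the IL-12 and IL-23 receptors (chr8:70808449-70821424, plus strand), fell while Il12rb2 rose. In experiment 1 it read 35.0 and 35.1 without cytokine, 27.0 and 24.9 with mIL-21 and 29.6 and 28.0 with 21h10 at 100 pM, then at 1 nM 27.0 and 27.5 with mIL-21 and 29.2 and 25.6 with 21h10. The unstimulated libraries were above all 8 others. The values of experiment 2 were 24.7 and 19.2 without cytokine, 16.5 and 17.7 with mIL-21 and 16.6 and 16.0 with 21h10 at 10 nM, then at 100 nM 15.2 and 16.8 with mIL-21 but 25.7 and 22.7 with 21h10, whose libraries overlapped the unstimulated ones. Il12rb1 fell in 7 of the 8 groups, by 0.28 to 0.45 on the log2 scale, and stood at 0.14 ± 0.11 with 21h10 at 100 nM. The 2 unstimulated libraries of experiment 2 were far apart, and without replicate 1 the 3 falls there went to -0.16, -0.24 and -0.26 and did not pass, while 21h10 at 100 nM went to 0.33 and did. The fall with mIL-21 at 10 nM was also lost without mIL-21 10 nM replicate 1 (-0.31), and that with mIL-21 at 100 nM without mIL-21 100 nM replicate 1 (-0.38).

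Il18r1 encodes the ligand-binding chain of the IL-18 receptor and Il18rap its accessory chain, and the genes lie next to each other on the plus strand of chromosome 1 (chr1:40465552-40500854 and chr1:40515362-40551705). Il18r1 read 13.8 and 12.9 in the unstimulated cells of experiment 1, 33.3 and 34.0 with mIL-21 and 38.0 and 40.6 with 21h10 at 100 pM, then at 1 nM 44.3 and 39.2 with mIL-21 and 38.1 and 41.9 with 21h10. The last 3 groups overlapped. In experiment 2 Il18r1 read 24.0 and 27.6 without cytokine, 111 and 113 with mIL-21 and 108 and 115 with 21h10 at 10 nM, then at 100 nM 118 and 111 with mIL-21 and 78.3 and 81.0 with 21h10. It rose in all 8 groups, by 1.33 ± 0.06 to 1.64 ± 0.06 in experiment 1 and by 1.63 ± 0.09 to 2.15 ± 0.09 in experiment 2.

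Il18rap read 3.88 and 4.195 without cytokine in experiment 1, 11.1 and 10.96 with mIL-21 and 10.8 and 12.04 with 21h10 at 100 pM, then at 1 nM 11.8 and 11.1 with mIL-21 and 7.15 and 7.35 with 21h10. The first 3 cytokine groups overlapped, and 21h10 at 1 nM lay between them and the unstimulated cells. In experiment 2 Il18rap read 8.96 and 9.24 without cytokine, 45.3 and 45.9 with mIL-21 and 44.4 and 43.0 with 21h10 at 10 nM, then at 100 nM 43.8 and 45.1 with mIL-21 and 31.9 and 35.0 with 21h10. It rose in all 8 groups, least with 21h10 at 1 nM (0.85 ± 0.08) and most with mIL-21 at 10 nM (2.32 ± 0.09, 5.01-fold).

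Ifngr1, the ligand-binding chain of the interferon-γ receptor (chr10:19591949-19610229, plus strand), read 57.2 and 54.6 without cytokine in experiment 1, 195 and 191 with mIL-21 and 167 and 169 with 21h10 at 100 pM, then at 1 nM 175 and 167 with mIL-21 and 130.5 and 133 with 21h10. mIL-21 at 100 pM was highest and 21h10 at 1 nM the lowest of the cytokine groups. Experiment 2 gave 213 and 206.9 without cytokine, 303 and 306 with mIL-21 and 284 and 272 with 21h10 at 10 nM, then at 100 nM 295 and 289 with mIL-21 and 259 and 251 with 21h10. Ifngr1 rose in all 8 groups, by 1.23 ± 0.05 to 1.79 ± 0.05 in experiment 1 and by 0.28 ± 0.07 to 0.53 ± 0.07 in experiment 2. With library sizes from mapped reads the rise with 21h10 at 10 nM fell to 0.13 and did not pass, and that at 100 nM turned to -0.0218. The latter was also lost without 21h10 100 nM replicate 1 (0.24, adjusted p 0.063).

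Over the list, 10, 9, 9 and 10 of the 10 genes passed the test against unstimulated cells for mIL-21 and 21h10 at 100 pM and then at 1 nM, in that order, where 77.7%, 81.6%, 80.1% and 80.3% of all genes tested passed. In experiment 2 each of the 4 comparisons called 9 of the 10, where, in the same order at 10 nM and then 100 nM, 46.2%, 50.1%, 46.2% and 50.8% of all genes passed. Il6st, Il12rb2, Il18r1, Il18rap, Il27ra and Ifngr1 were the 6 that rose in all 8. The share of all genes that rose in all 8 was not counted, so these 6 cannot be set against it. The 4 comparisons of an experiment share their unstimulated libraries and so are not separate evidence.

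**Figure D2:**
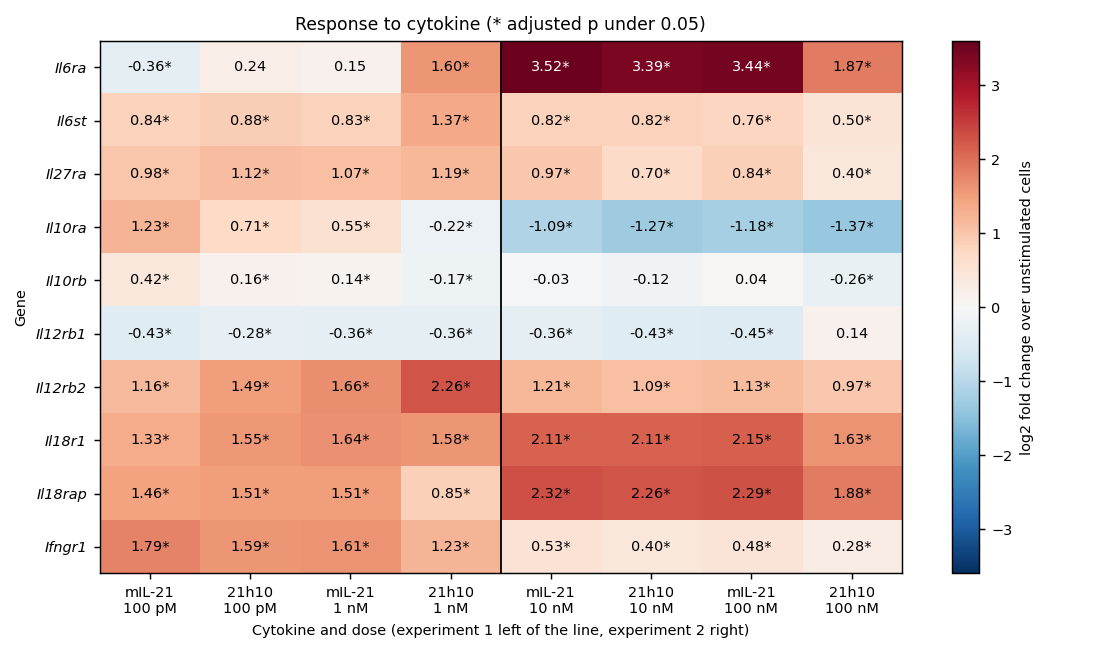
Heatmap of the log2 fold change over unstimulated cells of the same experiment (colour) for the 10 receptor genes (rows) in the 8 cytokine groups (columns), with an asterisk where the edgeR adjusted p was under 0.05. Il6ra changes from -0.36 with mIL-21 at 100 pM to 3.52 with mIL-21 at 10 nM, and Il10ra from 1.23 to -1.37 with 21h10 at 100 nM.

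The main question of the design is whether 21h10 acts on these genes as mIL-21 does at the same dose, so the proteins were compared at 4 doses. At 100 pM, 7 of the 10 genes differed, 4 higher and 3 lower with 21h10, where 38.6% of all 13974 genes tested differed, 19.6% higher and 19% lower. Il6ra (0.59 ± 0.15, adjusted p 0.005), Il12rb2 (0.33 ± 0.05, adjusted p 2.6e-05), Il18r1 (0.22 ± 0.06, adjusted p 0.00861) and Il27ra (0.14 ± 0.05, adjusted p 0.0384) were higher with 21h10. Il10ra was lower by the largest margin (-0.51 ± 0.04, adjusted p 9.18e-08), followed by Il10rb (-0.25 ± 0.06) and Ifngr1 (-0.20 ± 0.04). The counts of both IL-10 receptor chains were thus lower with the mimic, though that of Il10rb is uncertain through the bases it shares with Gm21970. The median of the 10 differences was 0.09, against -0.01 over all genes. Il6st differed by 0.04 (95% interval -0.07 to 0.15), Il18rap by 0.05 (-0.09 to 0.20) and Il12rb1 by 0.15 (0.02 to 0.28, adjusted p 0.0627). Without 21h10 100 pM replicate 2 or without mIL-21 100 pM replicate 1 only 4 genes passed, and Il6ra (0.49 and 0.40), Il18r1 (0.17 and 0.21) and Il27ra (0.14 and 0.18) did not. Il27ra also failed without any of the other 4 libraries of these groups and the unstimulated group (0.09 to 0.14) and with library sizes from mapped reads (0.03), under which Il18r1 failed too (0.12) and 28.4% in place of 50.9% of the called genes were higher with 21h10.

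At 1 nM the differences in Il6ra, Il10ra and Il12rb2 were wider. Here 7 of the 10 genes passed, 3 higher and 4 lower, against 37.7% of all genes, 19.6% higher and 18.1% lower. Il6ra was 2.73-fold higher with 21h10 (1.45 ± 0.13, adjusted p 1.7e-07), Il12rb2 1.51-fold higher (0.60 ± 0.05) and Il6st 1.45-fold higher (0.54 ± 0.05, adjusted p 3.45e-07). Il10ra was lower (-0.77 ± 0.05, adjusted p 7.99e-10), as were Il18rap (-0.66 ± 0.07, adjusted p 1.77e-06), Ifngr1 (-0.38 ± 0.04) and Il10rb (-0.31 ± 0.06). The IL-18 receptor chains parted at this dose, since Il18r1 differed by -0.06 (95% interval -0.19 to 0.07). Il12rb1 differed by 0.00 (-0.13 to 0.13) and Il27ra by 0.12 (0.02 to 0.23, adjusted p 0.0624). Il27ra passed with DESeq2 (0.15), without 21h10 1 nM replicate 2 (0.17) and without mIL-21 1 nM replicate 1 (0.16). With library sizes from mapped reads, 41.1% in place of 51.9% of the called genes were higher with 21h10.

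At 10 nM none of the 10 genes differed by edgeR, with 1 (Il27ra, -0.27 ± 0.10, adjusted p 0.525) at an unadjusted p under 0.05, and DESeq2 and limma called none of the 10 either. Of all 13772 genes, 0.00726%, that is 1 gene, passed. The 10 differences ran from -0.27 to 0.00, and of their 95% intervals the lowest bound was -0.48 (Il27ra, upper bound -0.06) and the highest 0.20 (Il6st, lower bound -0.20). For Il6ra the interval was -0.33 to 0.07 and for Il10ra -0.41 to 0.07. A difference of the size seen for Il6ra, Il10ra or Il12rb2 at 1 nM lay outside these intervals, while one of the size seen for Ifngr1 or Il10rb at 100 pM lay inside. The libraries of 6 of the 10 genes did not overlap between the proteins at this dose, as was so for 43.6% of all genes.

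At 100 nM, 6 of the 10 genes differed, 1 higher and 5 lower with 21h10, against 8.52% of all genes, 4.01% higher and 4.52% lower. Il6ra was lower to 0.337 of its level with mIL-21 (-1.57 ± 0.10, adjusted p 1.32e-07). Il18r1 (-0.53 ± 0.08, adjusted p 0.000781) and Il18rap (-0.41 ± 0.08, adjusted p 0.00453) were lower together, with Il27ra (-0.45 ± 0.10, adjusted p 0.0101) and Il10rb (-0.31 ± 0.08, adjusted p 0.035). Il12rb1 was the gene that was higher (0.60 ± 0.11, adjusted p 0.00388). The other 4, Il6st (-0.26 ± 0.10, adjusted p 0.103), Ifngr1 (-0.20 ± 0.07, adjusted p 0.107), Il12rb2 (-0.17 ± 0.08, adjusted p 0.191) and Il10ra (-0.19 ± 0.11, adjusted p 0.344), did not pass. The libraries of all 10 genes did not overlap between the proteins, as was so for 57.4% of all genes. The median of the 10 differences was -0.28. Without 21h10 100 nM replicate 1 only Il6ra and Il18r1 passed (Il12rb1 then 0.49, Il18rap -0.36, Il27ra -0.47, Il10rb -0.31), and without mIL-21 100 nM replicate 1 only these and Il18rap did (Il12rb1 0.52, Il27ra -0.42, Il10rb -0.28). Without 21h10 100 nM replicate 2, Il27ra (-0.44) and Il10rb (-0.32) failed, and Il10rb failed also without mIL-21 100 nM replicate 2 (-0.35) or either 21h10 library at 10 nM (-0.31 in each). Leaving out either unstimulated library made Il6st (-0.27) and Ifngr1 (-0.20) pass. With library sizes from mapped reads, 30.2% in place of 47.0% of the called genes were higher with 21h10.

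**Figure D3:**
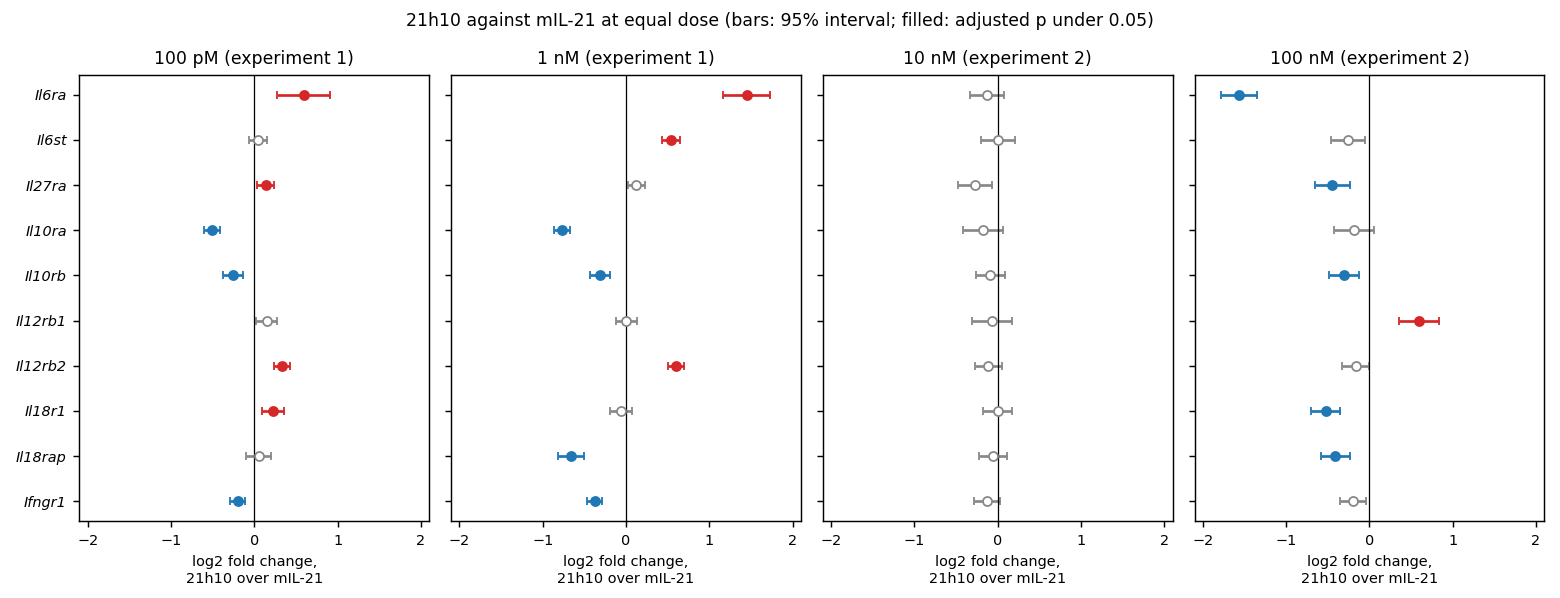
Difference between 21h10 and mIL-21 at the same dose (horizontal axes, log2 fold change, above 0 means higher with 21h10) for the 10 receptor genes, with 1 panel for each of the 4 doses. Bars are 95% intervals and filled points have an edgeR adjusted p under 0.05, so that Il6ra goes from 1.45 at 1 nM to -1.57 at 100 nM with no filled point at 10 nM.

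The steps between the doses of each protein were tested as well. From 100 pM to 1 nM of mIL-21, 6 of the 10 genes changed, against 34.5% of all genes. Il12rb2 (0.50 ± 0.05), Il18r1 (0.31 ± 0.06) and Il6ra (0.51 ± 0.16) rose, and Il10ra (-0.68 ± 0.04), Il10rb (-0.28 ± 0.06) and Ifngr1 (-0.17 ± 0.04) fell. The same step of 21h10 changed 7 of the 10, against 39.2% of all genes. Il6ra (1.36 ± 0.12), Il12rb2 (0.77 ± 0.05) and Il6st (0.49 ± 0.05) rose, and Il10ra (-0.94 ± 0.05), Il18rap (-0.66 ± 0.07), Ifngr1 (-0.35 ± 0.04) and Il10rb (-0.34 ± 0.06) fell. Il10ra, Il10rb and Ifngr1, which mIL-21 and 21h10 at 100 pM had raised, thus fell with more of either protein. The rise of Il6ra with mIL-21 was lost without mIL-21 100 pM replicate 1 (0.32), which also ended the fall of Ifngr1 (-0.16), and without mIL-21 1 nM replicate 2 (0.39). Without 21h10 1 nM replicate 1, Il12rb1 fell with 21h10 as well (-0.17, against -0.07 ± 0.06 with all libraries).

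From 10 nM to 100 nM of mIL-21 none of the 10 genes changed by edgeR, and none at an unadjusted p under 0.05 or by DESeq2 or limma. The differences ran from -0.13 for Il27ra to 0.07 for Il10rb, and 0% of all genes passed. The same step of 21h10 changed 4 of the 10, against 5.33% of all genes. Il6ra fell to 0.349 of its level (-1.52 ± 0.10, adjusted p 2.22e-07), Il18r1 (-0.48 ± 0.08, adjusted p 0.00207) and Il18rap (-0.39 ± 0.08, adjusted p 0.00891) fell, and Il12rb1 rose (0.57 ± 0.11, adjusted p 0.00688). Il6st (-0.32 ± 0.10, adjusted p 0.0672) and Il27ra (-0.30 ± 0.10, adjusted p 0.0971) did not pass, and did so when either unstimulated library was left out (-0.32 and -0.31). Without 21h10 100 nM replicate 1, 21h10 10 nM replicate 1 or 21h10 10 nM replicate 2, only Il6ra and Il18r1 passed, with Il12rb1 at 0.47, 0.59 and 0.54 and Il18rap at -0.33, -0.37 and -0.42.

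The change in the difference between the proteins from one dose to the next was tested as an interaction. It passed for 6 of the 10 genes between 100 pM and 1 nM (18.4% of all genes), with Il6ra, Il6st and Il12rb2 moving up with 21h10 relative to mIL-21 and Il10ra, Il18r1 and Il18rap moving down. Between 10 nM and 100 nM it passed for Il6ra and Il18r1, 2 of the 10 (0.922% of all genes), both moving down.

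A lower dose of 21h10 was also set against mIL-21, 100 pM against 1 nM. None of the 10 genes differed by edgeR, with 2 at an unadjusted p under 0.05, and DESeq2 and limma called none, where 0.737% of all genes passed. Il12rb2 was at -0.17 ± 0.05 (adjusted p 0.131) and Il10ra at 0.17 ± 0.04 (adjusted p 0.132), with 95% intervals of -0.27 to -0.07 and 0.07 to 0.26. Both passed when either 21h10 library at 1 nM was left out (-0.17 and 0.17), and Il12rb2 also without mIL-21 1 nM replicate 2 (-0.22). The widest interval was that of Il6ra, -0.22 to 0.38, and that of Ifngr1 was -0.12 to 0.07.

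Ratios between partner chains, taken within each library on the per-length scale, show how unevenly the pairs moved. Il12rb2 over Il12rb1 was 1.68 and 1.69 in the unstimulated libraries of experiment 1, 4.84 and 5.36 with mIL-21 and 5.67 and 5.85 with 21h10 at 100 pM, then at 1 nM 7.14 and 6.55 with mIL-21 but 9.597 and 11.1 with 21h10. Experiment 2 gave 4.40 and 6.06 without cytokine, 15.2 and 15.1 with mIL-21 and 14.7 and 14.7 with 21h10 at 10 nM, then at 100 nM 16.0 and 14.8 with mIL-21 but 8.59 and 9.59 with 21h10. The 21h10 libraries at 100 nM lay between the unstimulated and the other cytokine libraries. Il6ra over Il6st was 0.104 and 0.0997 without cytokine in experiment 1, 0.0386 to 0.0696 in the next 3 groups, and 0.120 and 0.119 with 21h10 at 1 nM. Experiment 2 went from 0.0926 and 0.0781 without cytokine to 0.484 to 0.564 in 3 cytokine groups, and to 0.245 and 0.198 with 21h10 at 100 nM.

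Il10ra over Il10rb was 0.539 and 0.542 without cytokine in experiment 1, stood at 0.953 and 0.943 with mIL-21 and 0.764 and 0.821 with 21h10 at 100 pM, and at 0.718 and 0.721 with mIL-21 but 0.490 and 0.558 with 21h10 at 1 nM. Experiment 2 gave 0.581 and 0.557 without cytokine and 0.235 to 0.306 in all 8 cytokine libraries. Il18rap over Il18r1 ran from 0.266 to 0.334 in 8 libraries of experiment 1, apart from 0.188 and 0.176 with 21h10 at 1 nM, and from 0.335 to 0.432 in experiment 2. Il27ra over Il6st ran from 2.31 to 3.40 in experiment 1 and from 1.91 to 2.71 in experiment 2. The length used was 2481 bases for Il18rap and 5452 for Il6st. The GENCODE transcripts matched to them are longer, at 4889 and 8678 exonic bases. These ratios therefore order libraries and not absolute chain numbers. The levels of Il18rap and Il6st beside those of other genes carry the same limit.

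**Figure D4:**
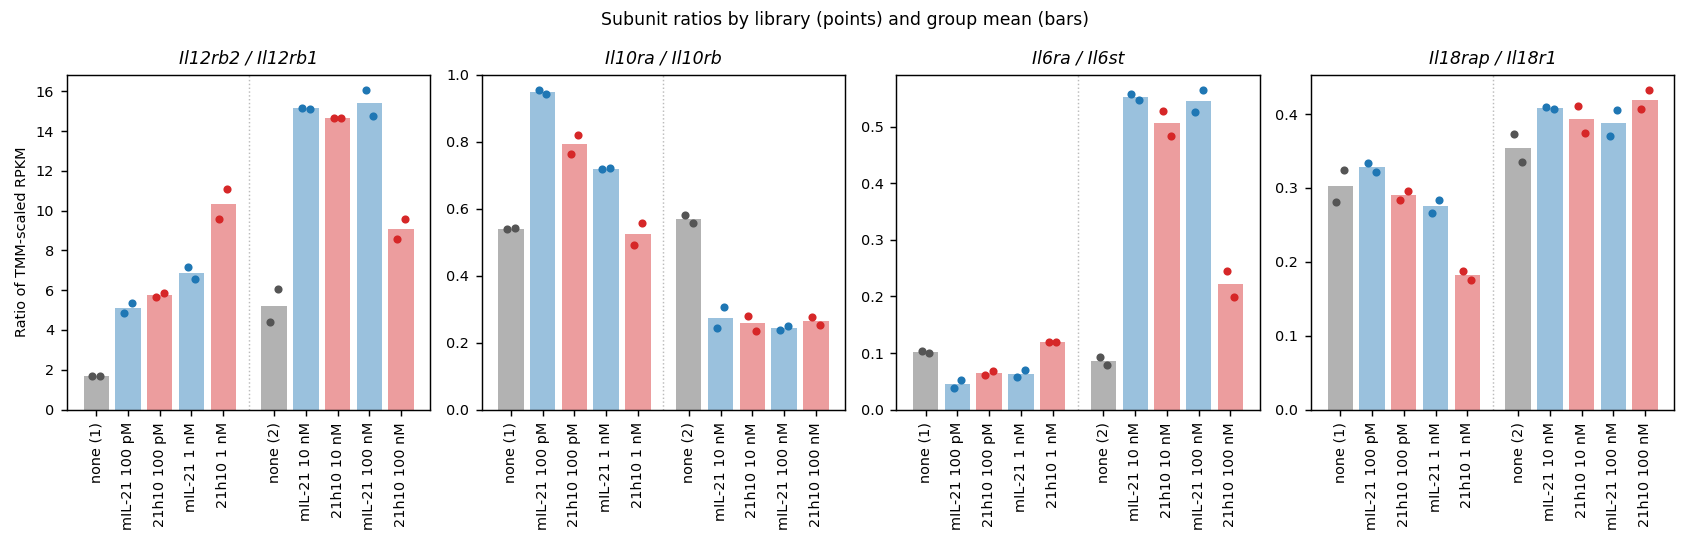
Ratio of 2 partner chains in each library on the TMM-scaled RPKM scale (vertical axes, linear from 0) for Il12rb2 over Il12rb1, Il10ra over Il10rb, Il6ra over Il6st and Il18rap over Il18r1. Bars are group means and points the 2 libraries of each group. The ratio of Il12rb2 to Il12rb1 reaches 14.7 to 16.0 in 3 groups of experiment 2, and that of Il10ra to Il10rb stays under 0.31 in all of its cytokine groups.

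The other genes of these pathways were taken from 4 lists. Of 12 ligand genes, 10 were tested in experiment 1 and 9 in experiment 2. With 21h10 against mIL-21, 5 ligands were higher and 1 lower at 100 pM, 5 higher and none lower at 1 nM, none differed at 10 nM, and 3 were higher and 2 lower at 100 nM, where 38.6%, 37.7%, 0.00726% and 8.52% of all genes differed in the same order. Il10, the ligand of Il10ra, was the ligand with the largest such difference at the low doses, 3.05 at 100 pM and 2.67 at 1 nM on the log2 scale. Its level rose from 0.356 and 0.376 without cytokine to 60.3 and 58.5 with 21h10 at 1 nM, the group in which Il10ra was lowest in that experiment. At 100 nM Il6, Ebi3 (1.37), a subunit of IL-27, and Il10 (0.68) were higher with 21h10, Il6 by the most. Il18 (-1.80) and Osm (-0.83) were lower there. Il6, the ligand of Il6ra, was higher with 21h10 at 1 nM, as Il6ra was, and at 100 nM, where Il6ra was lower. Ifng was higher with 21h10 than with mIL-21 at 100 pM (1.10) and 1 nM (0.79), the doses at which Ifngr1 was lower. Against unstimulated cells, however, Ifng fell with both proteins at 100 pM. At 1 nM it rose with 21h10 and did not pass with mIL-21.

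Of 12 other receptor chains and decoys, 9 were tested in each experiment. With 21h10 against mIL-21, 2 were higher and 2 lower at 100 pM, 2 and 1 at 1 nM, none at 10 nM, and 1 and 1 at 100 nM. The 4 of 9 at 100 pM and 3 of 9 at 1 nM stand beside the 38.6% and 37.7% of all genes, and the 2 of 9 at 100 nM beside 8.52%. Il23r, which pairs with Il12rb1 to bind IL-23, was higher with 21h10 at 100 pM (0.99) and 1 nM (2.64). Ifngr2, the signalling partner of Ifngr1, was lower at those doses (-0.66 and -0.68) and higher at 100 nM (0.66). Ifngr2 fell in all 4 groups of experiment 2 against unstimulated cells (-2.08 to -1.42), in which Ifngr1 rose.

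The 12 kinases, STAT factors and adaptors were all tested. With 21h10 against mIL-21, 2 were higher and 6 lower at 100 pM, 5 higher and 3 lower at 1 nM, none differed at 10 nM, and 1 was lower at 100 nM, Jak1 (-0.25). The shares of all genes that differed were again 38.6%, 37.7%, 0.00726% and 8.52%, here and for the next list. Stat4, which IL-12Rβ2 recruits, was lower with 21h10 at 100 pM (-0.32) and 1 nM (-0.66), where Il12rb2 was higher. Stat3 was higher at both doses (0.54 and 0.35), and Myd88, the adaptor of the IL-18 receptor, was higher too (0.31 and 1.05). Of the 8 feedback inhibitors and phosphatases, 5 were higher and 2 lower at 100 pM, 4 higher and none lower at 1 nM, none differed at 10 nM, and 3 were higher at 100 nM. Socs3, which binds gp130 and inhibits it, was higher with 21h10 at 100 pM (1.88) and 1 nM (1.09), and it rose against unstimulated cells in all 8 groups (2.81 to 6.61).

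Across the 10 group means, centred within each experiment, some receptor genes followed each other. Pearson's r was 0.970 for Il6st and Il12rb2, 0.957 for Il18r1 and Il18rap, 0.942 for Il6st and Il27ra, 0.781 for Il10ra and Il10rb, and -0.786 for Il12rb1 and Il27ra. Among 10507 other genes, those most like each receptor gene were Mina and Btla for Il6ra (0.991 and 0.989), Tpp1 and Akap13 for Il6st (0.992 and 0.991), Sorl1 and Ano10 for Il27ra (0.993 and 0.991), and Cd97 and Fbxo25 for Il10ra (0.986 and 0.983). For Il12rb2 they were Tet2 and Slc11a2 (0.995 and 0.993), for Il18r1 Prr14 and Prkx (0.996 and 0.996), for Il18rap Axin2 and Ugcg (0.998 and 0.997), and for Ifngr1 Neurl3 and Mical1 (0.997 and 0.991). Il10rb and Il12rb1 had less close neighbours, Adrbk1 and Emp3 (0.960 and 0.953) and Oxct1 and Penk (0.945 and 0.938). These are descriptions over 10 points that share libraries and an unstimulated group, and the neighbours were picked as the highest of all genes.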

How the data were processed

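The authors aligned the reads to mm10 (GRCm38) with TopHat and deposited, for each library, the read count on the exons of each transcript and its RPKM (TopHat2 2.0.11, Bowtie2 2.2.6, SAMtools 0.1.8, bedtools 2.25.0 and edgeR in the submitters' processing notes). The counting tool, annotation version and use of strand are not given in the sources used here. The longest transcript per symbol was kept. The deposited counts of each experiment were fitted with edgeR 4.0.16 (R 4.3.3; filterByExpr with a minimum count of 10 and total of 15, TMM, glmQLFit and glmQLFTest, group as the only factor, all 10 libraries), and p-values were adjusted by Benjamini-Hochberg over the 13974 (experiment 1) or 13772 (experiment 2) genes tested. The SE is the absolute log2 fold change over the square root of F. TMM-scaled RPKM uses the same counts and lengths and the TMM-scaled sum of reads on genes, whereas the deposited RPKM uses the authors' own total. Alternatives were DESeq2 1.42.0, limma 3.58.1 on log2(RPKM + 1), mapped-read library sizes, no filter, the most-read transcript, the compared groups alone, a replicate block and each library left out. The fits were tested on simulated data. All 10 receptor genes were named, and pathway genes only as examples with the largest absolute change past the threshold in a list. The receptor genes, lists and tests were chosen with earlier results of these data known. Duplicates differed beyond sampling noise in every group. The edgeR estimate of that spread (common coefficient of variation) was 4.32% in experiment 1 and 8.80% in experiment 2. A difference of a given size thus passes less readily in experiment 2, and the part of this in the counts of genes called was not tested. P-values measure the spread between the deposited libraries.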

Additional observations from a re-analysis of the deposited data

Results flagged for a closer look

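The difference between 21h10 and mIL-21 itself changed between doses for several receptor genes, by the interaction term of the edgeR fit within an experiment. Between 100 pM and 1 nM it did so for 6 of the 10 genes, against 18.4% of all genes tested. The change was 0.85 ± 0.21 for Il6ra (adjusted p 0.00761), 0.50 ± 0.07 for Il6st (adjusted p 0.000165), 0.27 ± 0.06 for Il12rb2 (adjusted p 0.00804), -0.26 ± 0.06 for Il10ra (adjusted p 0.00857), -0.28 ± 0.09 for Il18r1 (adjusted p 0.0311) and -0.71 ± 0.10 for Il18rap (adjusted p 0.000101), all on the log2 scale and in the direction of higher with 21h10 at 1 nM where positive. Il6ra, Il6st and Il12rb2 thus gained with 21h10 over mIL-21 as the dose rose, and Il10ra, Il18r1 and Il18rap lost. Ifngr1 did not pass (-0.18 ± 0.06, adjusted p 0.0612). Without mIL-21 100 pM replicate 2 only Il6st and Il18rap passed (Il6ra 0.67, Il12rb2 0.25, Il10ra -0.24, Il18r1 -0.30), and Il18r1 also failed without mIL-21 100 pM replicate 1 (-0.27), mIL-21 1 nM replicate 1 (-0.19), 21h10 100 pM replicate 2 (-0.23) or 21h10 1 nM replicate 1 (-0.22). With library sizes from mapped reads and with limma, Il10ra (-0.20 and -0.17) and Il18r1 (-0.23 and -0.22) did not pass.

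Between 10 nM and 100 nM the difference changed for 2 of the 10 genes, against 0.922% of all genes tested, by -1.44 ± 0.14 for Il6ra (adjusted p 4.39e-05) and -0.53 ± 0.12 for Il18r1 (adjusted p 0.0457). The Il18r1 call was lost when any of the 8 cytokine libraries of the experiment was left out, with values of -0.57 to -0.48, and with mapped-read library sizes (-0.51) or limma (-0.50), whereas that of Il6ra was kept in each of these. Il12rb1 changed by 0.67 ± 0.16 (adjusted p 0.0682) and passed with DESeq2 (0.68) and without either unstimulated library (0.66 and 0.66). No group held enough libraries to test a single one as standing apart.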

How the results depend on the processing

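Of 3230 values (10 receptor genes in 19 comparisons under 17 alternatives), 3080 kept their side of the threshold (73 of them, called in neither setting, with the other sign), 43 passed newly, 105 no longer passed, and 2 that were called changed sign. These 2 were Ifngr1 with 21h10 at 100 nM against unstimulated cells, -0.0218 with mapped-read library sizes and -0.0215 with limma. Limma called 4 in place of 7 genes at 100 pM, and mapped-read sizes and limma each called 1 in place of 2 for the change between 10 nM and 100 nM.

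With single libraries left out, the number of genes called between the proteins ran from 4 to 8 at 100 pM, 7 to 8 at 1 nM, 0 to 0 at 10 nM and 2 to 8 at 100 nM. It was 0 to 2 for 21h10 at 100 pM against mIL-21 at 1 nM, 4 to 6 and 0 to 0 for the lower and upper dose step of mIL-21, 7 to 8 and 2 to 6 for those of 21h10, and 2 to 7 and 1 to 3 for the changes in difference. Against unstimulated cells it ran from 7 to 10 over the 8 comparisons.

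Mapped-read library sizes shifted the median of all genes against unstimulated cells by -0.30 to -0.18 in experiment 2, and the share of calls that were higher from between 48.7% and 50.3% to between 23.2% and 29.7%. The same share went from 51.9% to 26.1% for the lower dose step of mIL-21, from 51.4% to 38.0% for that of 21h10 and from 45.4% to 58.7% for the change in difference in experiment 1. Over all genes at 10 nM, edgeR called 1 (1208 at an unadjusted p under 0.05), DESeq2 13 and limma 0, and 179 were called with no filter. Over the alternatives the counts of all genes ran from 373 to 2026 at 100 nM (1174 in the report), 254 to 1553 for the upper dose step of 21h10 (734), 31 to 199 for 21h10 at 100 pM against mIL-21 at 1 nM (103) and 45 to 269 for the change in difference in experiment 2 (127), and the upper dose step of mIL-21 called 14 with no filter (0).

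Libraries with the same replicate number did not vary together in experiment 1 (r over 0.1 in 0 of 10 pairs). In experiment 2, r was over 0.1 in 3 of 10 pairs and reached 0.227. With the number as a replicate block the counts of genes called were 7, 7, 0 and 6 at the 4 doses, and the only call to change was Il6st between 10 nM and 100 nM of 21h10, which passed (-0.32).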
